A study of Mus musculus with 4 samples.

Results

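The genes described here code for the proteins that join heart muscle cells end to end at the intercalated disc. They were chosen by symbol: Gja1, Gja5 and Gjc1 (connexins), Dsp, Pkp2, Dsg2, Dsc2 and Jup (desmosome), and Cdh2 and Ctnna3 (adherens junction). Each of the 10 symbols stood on 1 Ensembl gene, so the set is 10 of the 55382 genes in the deposited tables, and all 10 passed the filter on low values. Hearts of mice killed on day 15 after birth were studied by ribosome profiling, which sequences the mRNA fragments covered by ribosomes (footprints). The WT group (2 libraries) came from mice named NAT10-FF in the series design, and the KO group (2 libraries) from mice named NAT10-CKO, a conditional knockout of Nat10, whose product adds acetyl groups to cytidine in RNA. The Cre line and the cells it acts in are not named in the labels. The labels name cardiomyocytes as the cell type, but about 100 mg of whole heart was lysed, with cycloheximide at 100 µg/mL to hold the ribosomes in place. The labels do not tie the 2 libraries of a group to separate animals. The p-values therefore reflect the spread among these 4 libraries alone, and that spread may be technical.

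At the intercalated disc, desmosomes anchor the intermediate filaments of neighbouring cells, adherens junctions anchor their myofibrils, and gap junctions let current pass between them. Desmosomal cadherins (desmoglein and desmocollin) reach across the gap, and plakoglobin and plakophilin tie their tails to desmoplakin, which holds the filaments. In the heart these parts are mixed in one structure, and inherited loss of desmosome proteins causes arrhythmogenic cardiomyopathy. In the weeks after birth, junction proteins that first lie along the sides of the cells gather at their ends.

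Each gene has 3 values per library. Footprint levels are in FPKM, a fragment count divided by the gene's length and the library's size. The translation efficiency (TE) is the authors' ratio of footprints to RNA, and the quotient of both is the RNA level that formed its denominator, called the implied RNA level. Depth in reads is unknown, because FPKM keeps no read total. Between 16425 and 16900 genes had footprints above 0 in a library. The targeted gene Nat10 read 77.3 and 73.9 FPKM in WT against 40.01 and 52.1 in KO (log2 difference -0.71, SE 0.30, limma adjusted p = 0.295). Most genes read higher in KO, with a log2 change above 0 in 71.1% for footprints, 64.6% for RNA and 59.5% for TE. The median log2 change of the 15031 genes tested for footprints was 0.36, and that of the 12529 genes tested for RNA and TE was 0.22 and 0.15. Cardiomyocyte markers stood against this trend, with 9 of 10 below both WT libraries in both KO libraries (12.1% of all tested genes) and a median log2 footprint change of -0.58. The summed FPKM of those 10 markers was 247200 to 290900 in WT and 164800 to 173700 in KO, with none at 0. Over 10 fibroblast markers the sum was 21680 to 25940 in WT and 54690 to 70990 in KO. In a whole tissue, fewer cells of a type and less RNA per cell cannot be told apart. The part of cell makeup in the results below was not tested.

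The regulatory sequence in front of 3 of the genes is shown first, since they stand at different places in the results. Gja1 was the most abundant, Gja5 had the largest positive footprint difference and Ctnna3 the largest negative RNA difference. Each line gives the 250 bases before the annotated start in RefSeq (GRCm38.p6), 5′ to 3′ on the plus strand, with the motif matches found in them in capitals.
Gja1, chr10:56377050-56377299: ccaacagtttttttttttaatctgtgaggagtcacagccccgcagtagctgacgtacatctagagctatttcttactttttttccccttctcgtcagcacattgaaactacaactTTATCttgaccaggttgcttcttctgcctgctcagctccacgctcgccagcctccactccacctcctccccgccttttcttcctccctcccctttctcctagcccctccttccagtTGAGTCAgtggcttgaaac
Gja5, chr3:97032152-97032401: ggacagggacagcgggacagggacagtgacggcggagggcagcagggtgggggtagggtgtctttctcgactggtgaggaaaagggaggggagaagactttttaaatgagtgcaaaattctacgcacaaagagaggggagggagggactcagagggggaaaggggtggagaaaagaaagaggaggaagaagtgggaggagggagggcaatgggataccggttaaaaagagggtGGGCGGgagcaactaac
Ctnna3, chr10:63429848-63430097: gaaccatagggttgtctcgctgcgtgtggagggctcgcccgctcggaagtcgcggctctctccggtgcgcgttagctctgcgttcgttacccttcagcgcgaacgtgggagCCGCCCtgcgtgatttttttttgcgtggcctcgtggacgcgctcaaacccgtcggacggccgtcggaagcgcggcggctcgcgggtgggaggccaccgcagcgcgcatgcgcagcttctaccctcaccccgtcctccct

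Of the 10 genes, 5 had such a sequence read (Dsp and Jup besides these 3). The search left out members on chromosome 18 (Dsg2, Dsc2 and Cdh2), and no sequence was at hand for Gjc1 and Pkp2. Ctnna3 has 3 annotated starts, of which the first is shown, and which start the heart uses was not checked. Searched on both strands were TGANTCA (bound by AP-1), TATAAA (the TATA box), GGGCGG (bound by Sp1), CCAAT (bound by NF-Y), GATAA (bound by GATA factors) and CATTCC (bound by TEAD factors), with no overlapping matches in the 3 windows. The Gja1 window held TGANTCA with its first base 19 bases before the start (-19), a match found in 6.75% of all 32851 such windows, and GATAA in reverse at -135 (22.6% of windows). The windows of Gja5 and Ctnna3 each held GGGCGG once, at -17 in Gja5 and in reverse at -139 in Ctnna3 (32.7% of windows). In GC content Gja1 stood at 50%, Gja5 at 56.4% and Ctnna3 at 67.6%, against a median of 52.4% over all windows. The Ctnna3 window shown held 36 CpG dinucleotides and those of Gja1 and Gja5 held 6 and 7, with a median of 6 over all windows. The windows of Dsp and Jup held 22 and 13. At the other Ctnna3 starts the windows held 7 and 1, at 44.8% and 45.6% GC and without GGGCGG. A match says only that these letters are present.

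None of the 10 genes passed limma's test in footprints, RNA or TE (adjusted p at least 0.237, 0.067 and 0.857). Over all tested genes, 0.379% passed for footprints (0.253% higher and 0.126% lower), 5.73% for RNA and 0.00% for TE, where 6.06% had an unadjusted p under 0.05. At that unadjusted level 1 of the 10 stood out for footprints (Ctnna3), against 17.3% of all genes, and 5 for RNA (Dsp, Pkp2, Dsc2, Cdh2 and Ctnna3), against 28.3% of all genes. Both KO libraries lay beyond both WT libraries in 6 of the 10 for footprints (51.7% of all genes), 7 for RNA (62.8%) and 4 for TE (35.9%), all 4 of these upwards (24.0% of all genes upwards, 12.0% downwards). By direction, RNA separated downwards in 5 genes (18.6% of all genes) and upwards in 2 (44.2%), and footprints downwards in 3 (12.1%) and upwards in 3 (39.5%). The log2 change was above 0 in 5 of the 10 for footprints, 3 for RNA and 8 for TE. The median log2 change of the 10 was -0.02 for footprints, -0.49 for RNA and 0.52 for TE, beside 0.36, 0.22 and 0.15 for all tested genes. TE is the ratio of footprints to RNA, so the TE changes are not independent of the RNA changes. An exact permutation test of 2 libraries against 2 has a smallest possible p of 0.333 for any single value, so the tests given are limma's, which share the spread over genes.

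**Figure D1:**
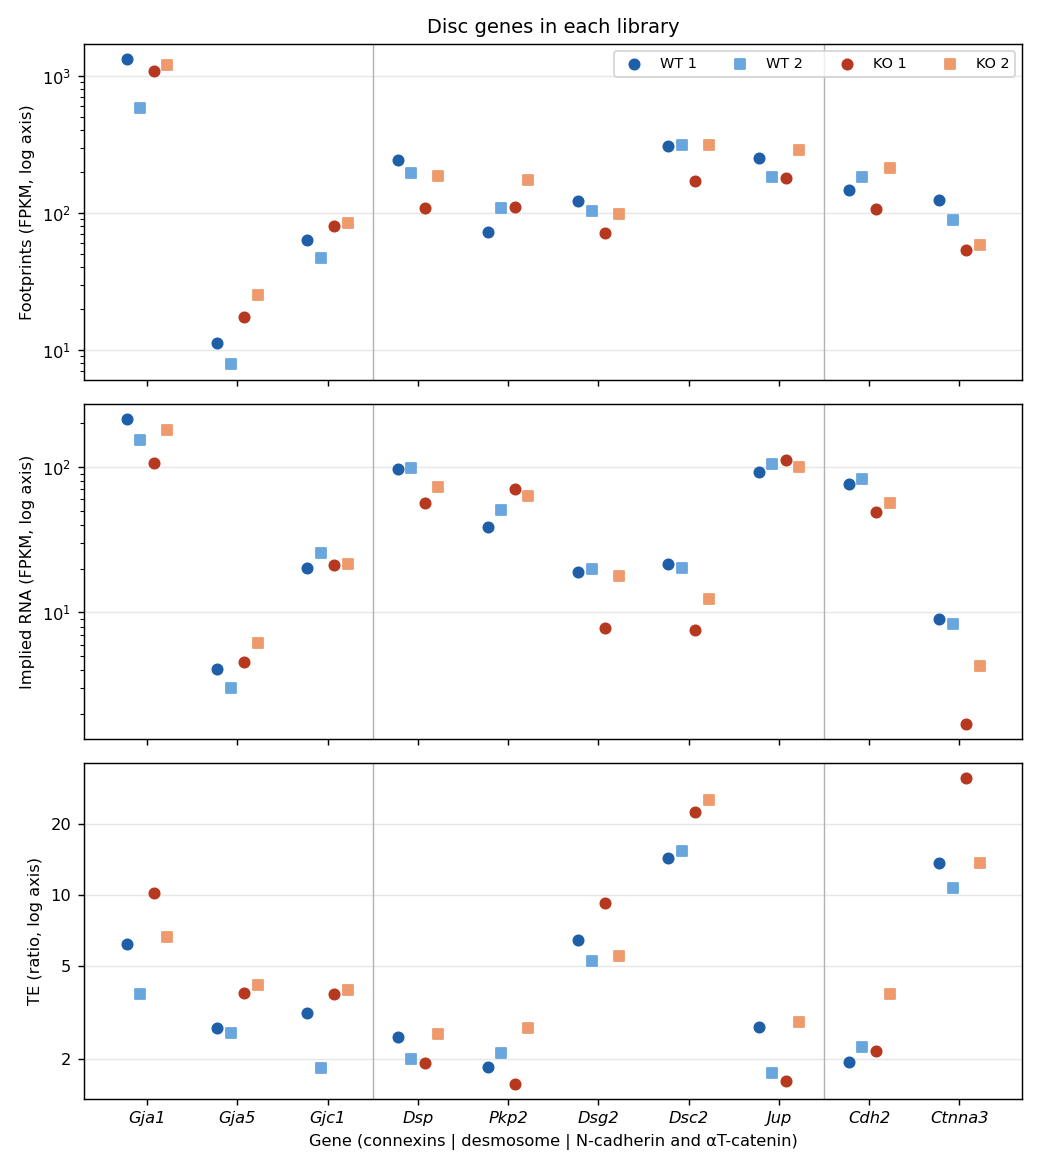
Footprint level, implied RNA level (both FPKM) and TE (ratio) of the 10 genes on log axes. Each point is 1 library (WT blue, KO red; circles replicate 1, squares replicate 2), and vertical lines separate connexins, desmosome genes and the pair of Cdh2 and Ctnna3. Gja1 is highest in footprints in every library, and the RNA of Dsp, Dsg2, Dsc2, Cdh2 and Ctnna3 is lower in both KO libraries than in both WT libraries.

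**Figure D2:**
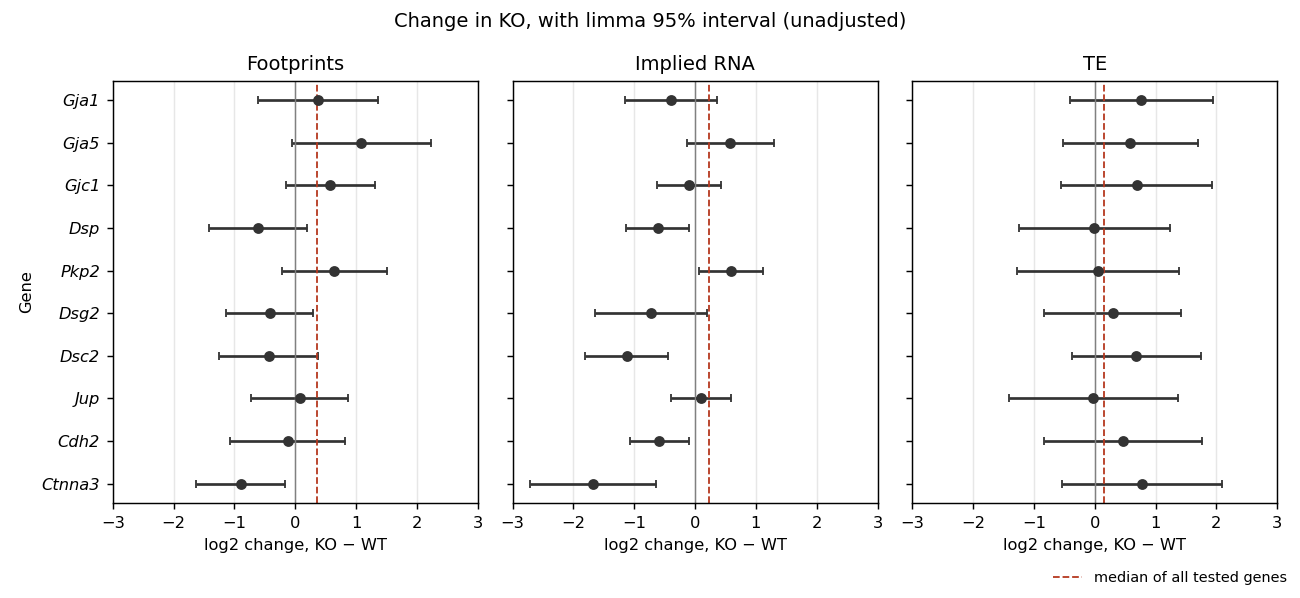
log2 change (KO minus WT) of the 10 genes in footprints, implied RNA and TE, as points with limma's unadjusted 95% interval. The dashed line marks the median of all tested genes (0.36, 0.22 and 0.15). The RNA intervals of Dsp, Dsc2, Cdh2 and Ctnna3 lie below 0 and that of Pkp2 above 0, but none of them passed after adjustment.

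Gja1 codes for Cx43, the gap junction protein of working heart muscle, and was by far the most translated of the set. Gja1 (ENSMUSG00000050953, chromosome 10, 56377300 to 56390419) read 1323 and 585 FPKM of footprints in WT against 1087 and 1195 in KO. WT replicate 2 had 0.442 times the footprints of WT replicate 1, and both KO libraries lay between them. The log2 change of 0.37 (SE 0.40, adjusted p = 0.651) was -0.0002 with median-ratio scaling of the libraries, 0.96 when WT replicate 1 was left out and -0.22 when WT replicate 2 was. The implied RNA of Gja1 stood at 214 and 153.5 FPKM in WT against 106 and 179.5 in KO (log2 change -0.39, SE 0.32, adjusted p = 0.443), again with overlapping groups. Its TE was 6.18 and 3.81 in WT against 10.2 and 6.66 in KO, so both KO libraries lay above both WT libraries, by 1.70-fold (log2 change 0.77, SE 0.49, 95% interval -0.41 to 1.94, adjusted p = 0.857). The interval includes changes in either direction.

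Gja5 codes for Cx40, the connexin of atria, conduction fibres and arterial endothelium, and had the fewest footprints of the set in every library. Gja5 (ENSMUSG00000057123, chromosome 3) read 11.2 and 7.83 FPKM of footprints in WT against 17.3 and 25.3 in KO. Both KO libraries were above both WT libraries, 2.12-fold in the fit (log2 change 1.08, SE 0.46, adjusted p = 0.302), or 0.73 on the log2 scale after median-ratio scaling. The RNA separated in the same direction, at 4.10 and 3.03 FPKM in WT against 4.54 and 6.12 in KO (log2 change 0.58, SE 0.30, adjusted p = 0.250; 0.36 if either WT replicate 2 or KO replicate 2 is left out, and 0.37 with median centring). So did the TE, at 2.72 and 2.59 in WT against 3.82 and 4.13 in KO (adjusted p = 0.883).

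Genes that mark the cell types known to use Gja5 were read beside it. Of 7 arterial endothelial markers, 5 had higher footprints in both KO libraries than in both WT libraries (39.5% of all tested genes). The footprints of all 7 summed to 201 to 248 FPKM in WT and 397 to 527 in KO. Their RNA summed to 62.7 and 69.1 FPKM in WT against 114 and 72.6 in KO. In RNA 3 of the 7 separated upwards and 1 downwards (44.2% and 18.6% of all tested genes). Among 10 general endothelial markers, 7 separated upwards in footprints (39.5% of all tested genes). The list of 6 atrial markers summed to 224 and 385 FPKM in WT against 768 and 179.5 in KO. In footprints 1 of the 6 separated upwards and 2 downwards (39.5% and 12.1% of all tested genes). Myl7, an atrial myosin light chain, stood at 59.8 and 162 FPKM in WT against 312 and 47.6 in KO. Myl7 and the markers at 0 in a library were named after their values were seen. The 10 conduction markers summed to 225 and 173 FPKM in WT against 220 and 253 in KO, with Isl1 at 0 in every library and Cpne5 and Shox2 at 0 in KO replicate 1. The part of these cell types in the Gja5 values was not tested.

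Gjc1 codes for Cx45, the connexin of early heart muscle and of the nodes. Gjc1 (ENSMUSG00000034520, chromosome 11) read 63.7 and 47.1 FPKM of footprints in WT against 80.2 and 84.3 in KO, with no overlap (log2 change 0.58, SE 0.30, adjusted p = 0.364). The change was 0.21 with median-ratio scaling and 0.36 with WT replicate 2 left out. Its RNA was 20.2 and 25.6 FPKM in WT against 21.1 and 21.3 in KO, which lay between the WT values (log2 change -0.10, SE 0.22, 95% interval -0.62 to 0.42, adjusted p = 0.787). The TE was 3.16 and 1.84 in WT against 3.81 and 3.95 in KO (adjusted p = 0.869). For all 3 connexins both KO libraries thus had a higher TE than both WT libraries, as 24.0% of all genes had.

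A share within a library does not depend on how libraries are scaled to each other. Gja1 held 94.7% and 91.4% of the summed connexin footprints of these 3 genes in WT against 91.8% and 91.6% in KO, a difference of -1.35 percentage points that lies within the WT spread (SD 2.29). Gja5 held 0.799% and 1.22% in WT against 1.46% and 1.94% in KO. In the implied RNA, Gja5 held 1.72% and 1.66% in WT against 3.44% and 2.96% in KO, and Gja1 held 89.8% and 84.3% in WT against 80.6% and 86.7% in KO. Only the Gja5 share had no overlap between groups in either measure, and Gja1 made up over 80% throughout.

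The desmosomal cadherins read lower in RNA in both KO libraries, and neither passed the test. Dsc2, desmocollin, the partner of desmoglein across the junction (ENSMUSG00000024331, chromosome 18, 20030633 to 20059554), had 21.6 and 20.3 FPKM of RNA in WT against 7.52 and 12.3 in KO. That is 2.18-fold lower in KO, with no overlap (log2 change -1.12, SE 0.28, adjusted p = 0.067), at the 3.94th percentile of all RNA changes. Its footprints were 309.9 and 313 FPKM in WT against 169.6 and 311 in KO, so KO replicate 1 was low and KO replicate 2 stood at the WT level (log2 change -0.44, SE 0.33, adjusted p = 0.513). Leaving out KO replicate 1 gave a log2 footprint change of -0.0028, and leaving out KO replicate 2 gave -0.87; median-ratio scaling gave -0.81. Its TE was 14.3 and 15.4 in WT against 22.5 and 25.2 in KO, higher in both KO libraries (1.60-fold, SE 0.44 on the log2 scale, adjusted p = 0.863).

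Dsg2, the desmoglein of heart muscle (ENSMUSG00000044393, chromosome 18, 20558074 to 20604526), read 123 and 104 FPKM of footprints in WT against 71.7 and 98.4 in KO. The groups did not overlap, though KO replicate 2 lay close to WT (log2 change -0.42, SE 0.29, adjusted p = 0.477; -0.20 with KO replicate 1 left out, -0.65 with KO replicate 2 left out and -0.79 with median-ratio scaling). Its RNA was 19.01 and 19.9 FPKM in WT against 7.76 and 17.8 in KO (log2 change -0.72, SE 0.39, adjusted p = 0.263). The RNA change rested on 1 library: it was -1.32 when KO replicate 2 was left out and -0.12 when KO replicate 1 was. TE was 6.46 and 5.22 in WT against 9.24 and 5.51 in KO, with overlap (adjusted p = 0.950).

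Among the plaque proteins, desmoplakin read lower and plakophilin higher in both KO libraries, and neither passed the test. Dsp, desmoplakin, which ties the plaque to desmin filaments (ENSMUSG00000054889, chromosome 13), read 241.5 and 197 FPKM of footprints in WT against 108 and 186 in KO. Its RNA was 96.6 and 98.3 FPKM in WT against 56.2 and 72.2 in KO, 1.53-fold lower in KO with no overlap (log2 change -0.61, SE 0.22, adjusted p = 0.129). The footprints gave the same size of change with a wider error (log2 change -0.61, SE 0.33, adjusted p = 0.380). They rested on 1 library, at -0.23 with KO replicate 1 left out and -1.0005 with KO replicate 2 left out, and read -0.99 with median-ratio scaling. The TE difference was -0.01 (SE 0.52, 95% interval -1.25 to 1.24).

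Pkp2, plakophilin, the plaque protein most often mutated in arrhythmogenic cardiomyopathy (ENSMUSG00000041957, chromosome 16), read 72.3 and 108 FPKM of footprints in WT against 111 and 173.5 in KO. KO replicate 1 exceeded WT replicate 2 only narrowly (log2 change 0.64, SE 0.35, adjusted p = 0.386). The change was 0.27 with median-ratio scaling, 0.35 with WT replicate 1 left out, 0.32 with KO replicate 2 left out and 0.96 with KO replicate 1 left out. Its RNA was 38.9 and 50.7 FPKM in WT against 70.1 and 63.6 in KO, 1.5-fold higher (log2 change 0.59, SE 0.22, adjusted p = 0.145; 0.38 with median centring). Relative to the median RNA change of all genes (0.22) this is a smaller difference, at the 73.0th percentile.

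Jup, plakoglobin, a catenin shared by desmosomes and adherens junctions (ENSMUSG00000001552, chromosome 11), was close to level. Its footprints were 253.5 and 183 FPKM in WT against 179 and 287 in KO (log2 change 0.08, SE 0.32, adjusted p = 0.921; -0.30 with median-ratio scaling). Its RNA was 92.4 and 105 FPKM in WT against 111 and 100.1 in KO (log2 change 0.10, SE 0.20, 95% interval -0.39 to 0.59, adjusted p = 0.773; -0.11 with median centring). The groups overlapped in all 3 measures.

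Cdh2 and Ctnna3 belong to the adherens junction. Cdh2, N-cadherin, the classical cadherin of heart muscle (ENSMUSG00000024304, chromosome 18, 16588877 to 16809246), had 75.8 and 82.0 FPKM of RNA in WT against 48.9 and 56.4 in KO, 1.5-fold lower with no overlap (log2 change -0.59, SE 0.20, adjusted p = 0.123). Its footprints were 147 and 184 FPKM in WT against 106 and 214 in KO, so the KO libraries lay on either side of both WT libraries (log2 change -0.12, SE 0.38, adjusted p = 0.890). Without KO replicate 1 the footprint change was 0.38, without KO replicate 2 it was -0.63, and with median-ratio scaling -0.50. TE was 1.94 and 2.25 in WT against 2.17 and 3.80 in KO (adjusted p = 0.929).

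Ctnna3, αT-catenin, which binds plakophilin and links both kinds of junction (ENSMUSG00000060843, chromosome 10, 63430098 to 65003667), had the largest negative difference of the 10 in footprints and in RNA. Its footprints were 123 and 88.7 FPKM in WT against 53.5 and 58.1 in KO, 1.86-fold lower with no overlap (log2 change -0.90, SE 0.30, adjusted p = 0.237). Its RNA was 8.997 and 8.325 FPKM in WT against 1.71 and 4.26 in KO, 3.20-fold lower (log2 change -1.68, SE 0.44, adjusted p = 0.071), at the 1.53rd percentile of all RNA changes. Both KO libraries were below WT, but they were 2.49 times apart. The TE was 13.7 and 10.7 in WT against 31.3 and 13.6 in KO, so WT replicate 1 and KO replicate 2 had nearly the same value (adjusted p = 0.868). TE is footprints over RNA, so a low RNA value raises it by construction.

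The RNA results of the junction genes turned on the KO libraries. Without KO replicate 2, where the lone KO library is taken to vary like WT, 5 of the 10 genes passed as lower in RNA: Ctnna3 (log2 change -2.34, adjusted p = 0.0035), Dsc2 (-1.48, 0.0054), Dsg2 (-1.32, 0.0073), Dsp (-0.79, 0.018) and Cdh2 (-0.69, 0.030). In that fit 8.86% of all genes passed as lower. Without KO replicate 1 none of the 10 passed (2.12% of all genes passed as lower), with Ctnna3 at -1.02 (adjusted p = 0.059), Dsc2 at -0.77 (adjusted p = 0.075) and Dsg2 at -0.12 (adjusted p = 0.737). Of the 10, Ctnna3 alone passed when WT replicate 1 was left out (adjusted p = 0.022; 1.77% of all genes lower) or WT replicate 2 was (adjusted p = 0.0080; 2.15% lower). Over the 10 genes, footprints in KO replicate 2 were 1.05 to 2.02 times those in KO replicate 1. The median of all tested genes was 1.19 times. Gja1 (1.10), Gjc1 (1.05) and Ctnna3 (1.09) lay below that median and the others above it.

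Setting the junction genes against N-cadherin in the same library removes the scaling between libraries. In RNA, Ctnna3 was 0.119 and 0.102 times Cdh2 in WT and 0.035 and 0.076 times in KO, a log2 difference of -1.09. Dsc2 was 0.285 and 0.248 times Cdh2 in WT and 0.154 and 0.219 times in KO (log2 difference -0.54). Both ratios were lower in both KO libraries, while the Dsp ratio overlapped between groups, at 1.27 and 1.20 in WT against 1.15 and 1.28 in KO. With KO replicate 1 left out the difference was -0.54 for Ctnna3 and -0.28 for Dsc2, and with KO replicate 2 left out it was -1.65 for Ctnna3. In footprints the Dsp ratio was lower in both KO libraries, at 1.64 and 1.07 in WT against 1.02 and 0.867 in KO. Its log2 difference was -0.49, or -0.18 with WT replicate 1 left out and -0.80 with WT replicate 2 left out. The Dsc2 footprint ratio was lower in both KO libraries too, at 2.11 and 1.70 in WT against 1.60 and 1.45 in KO. Its log2 difference was -0.31, but 0.18 with Dsp in place of Cdh2 as the reference.

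The RNA of Pkp2 exceeded that of N-cadherin in both KO libraries and in neither WT library. Its ratio was 0.513 and 0.619 in WT against 1.43 and 1.13 in KO (log2 difference 1.18). Jup had RNA ratios of 1.22 and 1.28 in WT against 2.27 and 1.77 in KO (log2 difference 0.69). Both RNA ratios also carry the lower RNA of Cdh2 itself (log2 change -0.59). The RNA of Jup alone changed by 0.10 with overlap, and that of Pkp2 by 0.59. In footprints the Pkp2 ratio was 0.491 and 0.589 in WT against 1.04 and 0.81 in KO (log2 difference 0.77). The Jup footprint ratio overlapped between groups, at 1.72 and 0.992 in WT against 1.69 and 1.34 in KO. These ratios carry no test.

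**Figure D3:**
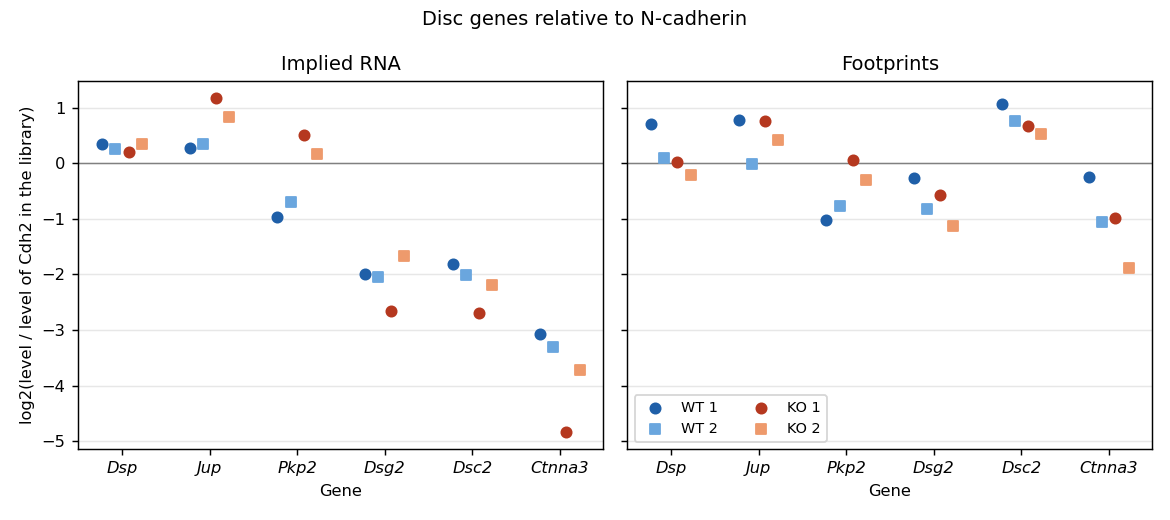
log2 ratio of 6 junction genes to Cdh2 in the same library, for implied RNA (left) and footprints (right), 1 point per library (WT blue, KO red). In RNA, Pkp2 and Jup lie higher and Dsc2 and Ctnna3 lower in both KO libraries, and the Ctnna3 point of KO replicate 1 (-4.84) is the lowest. The footprint ratios of Dsg2, Jup and Ctnna3 overlap between groups.

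The 10 genes differed widely in level. In WT footprints the order was Gja1 (954 ± 522 FPKM, SD, n = 2), Dsc2 (312 ± 2.48), Dsp (219 ± 31.8), Jup (218 ± 50.05), Cdh2 (166 ± 26.2), Dsg2 (113 ± 13.4), Ctnna3 (106 ± 24.5), Pkp2 (90.4 ± 25.5), Gjc1 (55.4 ± 11.7) and Gja5 (9.50 ± 2.36). The WT ranges of neighbours overlapped for Dsp and Jup, Jup and Cdh2, Dsg2 and Ctnna3, and Ctnna3 and Pkp2, so those pairs have no settled order. By the KO mean, Pkp2 (142 ± 44.4) took the sixth place and Ctnna3 (55.8 ± 3.24) the ninth. The place of Pkp2 is not settled, since in KO replicate 1 it (111 FPKM) read above Dsp (108) and Cdh2 (106).

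RNA gave another order. Gja1 was again first in WT (184 ± 42.9 FPKM), but Dsc2, the second in footprints, was the seventh in RNA (21.0 ± 0.93) and Ctnna3 the ninth (8.66 ± 0.47). Jup (98.5 ± 8.70), Dsp (97.4 ± 1.20) and Cdh2 (78.9 ± 4.34) followed Gja1. The WT ranges overlapped for Jup and Dsp and for Gjc1 and Dsc2, so the order within those pairs is not settled. In WT, Dsc2 had more footprints than Jup from less RNA.

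This gap is the TE, which is given here relative to the library's median TE. Divided by the median TE of the library, Dsc2 stood at 3.49 and 4.66 in WT against 5.96 and 5.39 in KO. Ctnna3 stood at 3.34 and 3.22 in WT against 8.27 and 2.92 in KO. In WT their mean TE lay at the 94.2th and 90.9th percentile of tested genes.

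Dsg2 (1.18 to 2.44) and Gja1 (1.15 to 2.702) were above the library median in all 4 libraries. Dsp (0.510 to 0.610), Jup (0.427 to 0.669), Pkp2 (0.417 to 0.646) and Cdh2 (0.473 to 0.813) were below it in all 4. Gja5 and Gjc1 lay below it in WT and at 0.845 to 1.01 in KO. The desmosomal cadherins thus had a higher TE than the plaque proteins Dsp, Jup and Pkp2 in every library, and N-cadherin stood with the plaque proteins. The sources do not say whether reads were counted over coding sequence or whole exons, and with whole exons a gene with long untranslated ends reads a lower footprint FPKM. TE levels of different genes are compared with that limit.

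**Figure D4:**
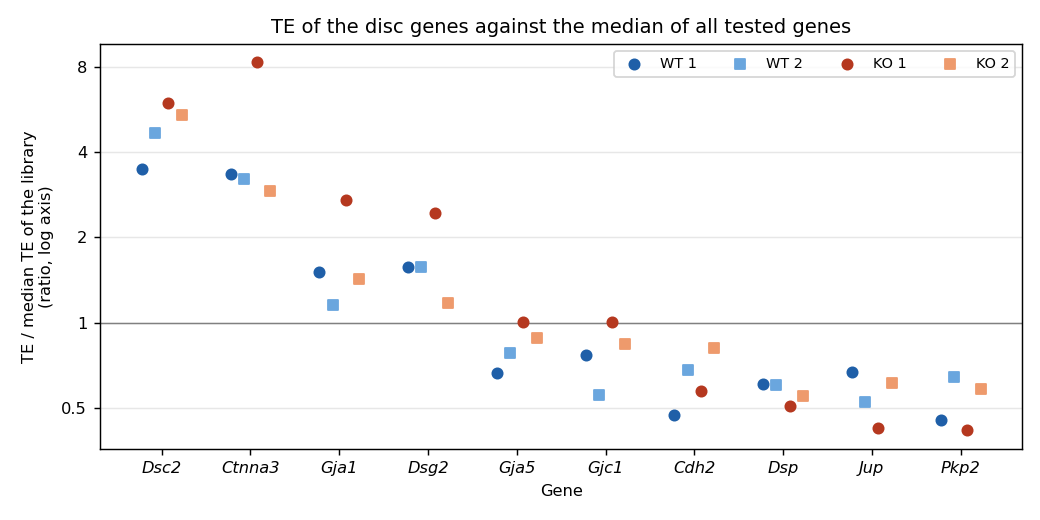
TE of each gene divided by the median TE of all tested genes in the same library (log axis, line at 1), 1 point per library, genes ordered by their mean. Dsc2, Ctnna3, Gja1 and Dsg2 lie above 1 in every library, and Cdh2, Dsp, Jup and Pkp2 below 1 in every library.

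Other connexins and pannexins were read from a list of 20, of which 7 were tested for footprints and 5 for RNA. None passed for footprints or TE and 1 rose in RNA, where 4.20% of all genes did. Panx1, a pannexin that forms channels for ATP release, rose 6.14-fold in RNA, from 0.930 and 1.20 FPKM in WT to 8.19 and 5.15 in KO (adjusted p = 0.023). Its footprints were 8.69 and 2.75 FPKM in WT against 19.2 and 27.8 in KO (adjusted p = 0.223). Gja4, an arterial connexin that is also among the arterial endothelial markers, had the highest footprint level of the list, at 32.4 and 39.1 FPKM in WT against 89.2 and 79.6 in KO (adjusted p = 0.175). Gjb1, a connexin of liver and myelin, read 9.19 and 12.5 FPKM in WT against 27.8 and 18.8 in KO (adjusted p = 0.313). It had an implied RNA level in KO replicate 1 alone (0.217 FPKM, TE 128), so its RNA was not tested. Gja3, a lens connexin, ran the other way, at 12.7 and 14.4 FPKM in WT against 3.42 and 6.22 in KO (adjusted p = 0.268).

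Of 15 other desmosome genes and partners, 5 were tested and 1 rose in RNA, as 4.20% of all genes did. Tmem43, a membrane protein whose mutation causes arrhythmogenic cardiomyopathy, rose 2.92-fold in RNA, from 7.87 and 9.77 FPKM in WT to 30.4 and 21.5 in KO (adjusted p = 0.033). Des, desmin, the filament that desmoplakin binds, had RNA of 371 and 393 FPKM in WT against 1252 and 618 in KO (adjusted p = 0.094). The groups overlapped in Des footprints, at 757 and 1070.0 FPKM in WT against 595 and 1406 in KO (log2 change 0.02, the lowest of the tested members). Perp, a desmosome membrane protein and p53 target, had 104.5 and 128 FPKM of RNA in WT against 239.5 and 195 in KO (adjusted p = 0.067). Pkp4, a plakophilin relative, had footprints of 23.4 and 16.0 FPKM in WT against 18.0 and 35.7 in KO, with overlap (adjusted p = 0.714).

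Of 22 other adherens junction genes, 18 were tested for footprints and 17 for RNA. In RNA 1 rose, as 4.20% of all genes did. Arvcf, a catenin of the p120 family, rose 2.87-fold in RNA, from 8.19 and 11.4 FPKM in WT to 31.96 and 24.0 in KO (adjusted p = 0.036). It did not pass without WT replicate 1. The calls of Panx1, Tmem43 and Xirp2 were lost when limma was run without its trend. Ctnna1, αE-catenin, the relative of Ctnna3, had 186 and 205 FPKM of RNA in WT against 119 and 133 in KO, 1.56-fold lower with no overlap (adjusted p = 0.111). Ctnnb1, β-catenin, had footprints of 1862 and 1298 FPKM in WT against 1925 and 1850.0 in KO (adjusted p = 0.586). Cdh5, the endothelial cadherin, had footprints of 884 and 689 FPKM in WT against 932 and 1533 in KO (adjusted p = 0.354). Cdh3, P-cadherin, had the largest positive footprint difference (0.347 and 0.246 FPKM in WT, against 3.52 and 10.03 in KO, adjusted p = 0.184), and Ctnnal1, α-catulin, the largest negative (76.1 and 107 in WT, against 28.1 and 69.6 in KO, adjusted p = 0.341).

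All 18 scaffold and channel partners of the disc were tested, and 1 rose in RNA, as 4.20% of all genes did. Xirp2, an actin-binding Xin repeat protein of the disc, rose 11.5-fold in RNA, from 23.5 and 23.9 FPKM in WT to 461 and 162 in KO (adjusted p = 0.023). Its footprints were 60.9 and 54.4 FPKM in WT against 151 and 491 in KO (adjusted p = 0.176). Csrp3, a muscle LIM protein, had footprints of 4527 and 5421 FPKM in WT against 7513 and 14600.0 in KO (adjusted p = 0.245). Nrap, an actin anchor of growing myofibrils, read 460.0 and 546 FPKM in WT against 478 and 1112 in KO (adjusted p = 0.519). Popdc2, a membrane protein that binds cyclic AMP, read 1439 and 1454 FPKM in WT against 1114 and 1708 in KO (adjusted p = 0.915). Ldb3, a Z-disc scaffold, had the largest negative difference, at 279 and 435 FPKM in WT against 155 and 190.2 in KO (adjusted p = 0.213).

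The RNA direction of the disc genes can be set beside these lists. The median log2 RNA change was -0.49 for the 10 genes, 0.75 for other connexins and pannexins, 0.90 for other desmosome genes, -0.06 for other adherens genes, -0.04 for scaffold and channel partners and -0.37 for 10 cardiomyocyte markers, with 0.22 for all tested genes. Both KO libraries were below both WT libraries in 5 of 10, 1 of 5, 1 of 5, 5 of 17, 4 of 18 and 7 of 10, in that order, against 18.6% of all genes. No test compares these lists.

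Among the 5 genes whose pattern over the libraries was most like that of Gja1 were Fam222a, Mgat5, Magi3 and Qser1, in order of distance. Likeness was the Euclidean distance over 8 values (log2 footprint and log2 RNA in 4 libraries, each centred on its mean). It was 0.22 for Fam222a and 0.42 for Qser1. The median over the 11873 genes compared was 1.56, and the named genes lie below it because they were picked as the nearest.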

How the data were processed

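Ribosome profiling of 4 mouse heart libraries (2 WT, 2 KO) gave 2 deposited tables. The FPKM values were made by the authors, per Ensembl gene and library. The TE values are a ratio of footprints to RNA, as deposited. The submitters' processing notes name the aligners STAR 2.7.4a and Bowtie 1.3.1, the counters Cufflinks 2.2.1 and HTSeq 0.13.5, the trimmer cutadapt 3.7, FastQC 0.11.9 and the build GRCm38 (mm10). Their order and settings are not given. All 59296 quotients of FPKM over TE came out with 6 significant digits or fewer (within 1e-10 of the quotient), as a deposited value would, and were taken as the implied RNA level. No source describes the RNA libraries behind it. Where TE was 0, RNA and TE were treated as missing.

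Genes with FPKM of at least 1 in at least 2 libraries were tested. Footprints as log2(FPKM + 1), which understates changes of low genes, log2 of implied RNA and log2(TE) were compared two-sided with limma 3.58.1 (lmFit, eBayes with trend) in R 4.3.3, all genes in 1 fit, Benjamini-Hochberg adjusted and called at 0.05. RNA and TE used the genes with a TE above 0 in all 4 libraries. The fit was tested on simulated data. Intervals are unadjusted 95% intervals. Start sites and upstream sequences are from RefSeq (GRCm38.p6).

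The genes and lists were chosen with earlier results of these data known. All 10 genes were named. In each other list, genes that passed, the 3 highest in footprints and the largest difference in each direction were named. For Gja1 the rule took the 5 nearest genes, of which 1 is not reported here. Alternatives were scaling, low-value filters, pseudocounts, the eBayes trend, gene types tested, the replicate block and leaving out each library.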

Additional observations from a re-analysis of the deposited data

How the results depend on the processing

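Of the 10 genes, none passed for footprints or TE under any alternative run. For RNA the members lower numbered 2 with the replicate block (Ctnna3 and Dsc2; 3.20% of all genes lower) and 0 to 5 when 1 library was left out. The labels do not say that replicate numbers mark shared litters or days, and the differences between replicates 1 and 2 correlated between groups at -0.06 (footprints), -0.22 (RNA) and -0.02 (TE) across genes, so the numbers were not taken as pairs; the block changed no other call among the 10 genes. Depth in reads is unknown.

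Over all genes, footprints gave 38 higher and 19 lower. The counts were 170 and 51 without small RNA genes and unnamed models, 23 and 13 without the trend, 118 and 25 with the replicate block, 23 and 11 with a pseudocount of 0.1, 7 and 1 with no filter, 40 and 30 with median-ratio scaling, and 0 and 0 without any 1 library. RNA gave 526 higher and 192 lower; it was 50 and 17 without the trend, 1028 and 401 with the replicate block, 303 and 292 with median centring, and 482 to 2632 higher and 222 to 1110 lower without 1 library. TE gave 0 and 0; it was 126 and 52 with the replicate block, 0 and 1 without small RNA genes, without the trend or at a mean footprint level of at least 10, and 0 to 23 higher and 0 to 10 lower without 1 library. The cause of these shifts was not tested. The single RNA calls in the lists of other connexins, desmosome genes and scaffold partners fell to 0 without the trend, and that of other adherens genes to 0 without WT replicate 1; without KO replicate 2 these lists had 4, 4, 6 and 4.

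Directions of genes near 0 turned. With median-ratio scaling the footprint change was -0.0002 for Gja1 and -0.30 for Jup. With median centring the RNA change of Jup was -0.11 and the TE change of Pkp2 -0.13. Leaving out 1 library gave footprint changes of -0.22 to 0.96 (Gja1), -0.26 to 0.41 (Jup) and -0.63 to 0.38 (Cdh2), an RNA change of -0.27 to 0.073 (Gjc1), and TE changes of -0.21 to 0.20 (Dsp), -0.34 to 0.45 (Pkp2), -0.0748 to 0.67 (Dsg2) and -0.44 to 0.39 (Jup). With Dsp in place of Cdh2 as the reference, the log2 footprint ratio difference was 1.26 for Pkp2 (from 0.77), 0.69 for Jup (from 0.20, now without overlap), -0.29 for Ctnna3 (from -0.78), 0.19 for Dsg2 (from -0.30) and 0.18 for Dsc2 (from -0.31), so those of Dsg2 and Dsc2 turned upwards.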
